A study of Homo sapiens with 24 samples.

Results

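The 12 libraries described here came from SAS cells, a human oral squamous carcinoma line, that carried the E79Q form of NRF2, and they were all such libraries among 24 in the series. They were taken by genotype label and fell into 4 groups of 3: untreated cells, cells given CB-839 alone, cells given radiation (RT) alone, and cells given both. The quantity followed is the RT by CB-839 interaction: the log2 effect of RT under CB-839 minus the log2 effect of RT without it. It is 0 where the separate effects multiply, negative where the combined level lies below that product and positive where it lies above.

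CB-839 was used at 0.1 µM for 24 h before a dose of 4 Gy from an x-ray cabinet, and RNA was taken 24 h after RT. Cells without the drug received vehicle where the treatment text describes them. That text names the irradiated groups only, so the handling and harvest time of the unirradiated cells were not given. The other 12 libraries are the same 4 treatments in SAS cells labelled NRF2 WT and serve as the comparison for genotype. How the E79Q form was introduced, and whether it is 1 clone or a pool, was not given in the sources used here. Nothing in the labels says that the 3 libraries of a group came from separate cultures, so p-values measure only the spread between these libraries.

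NRF2, encoded by NFE2L2, is a transcription factor that KEAP1 marks for degradation, and changes in its KEAP1-binding segment such as E79Q let it accumulate and drive antioxidant genes. CB-839 inhibits glutaminase, the enzyme that turns glutamine into glutamate for glutathione, amino acid synthesis and the TCA cycle. Ionizing radiation breaks DNA and also turns on p53 and NF-kB, a transcription factor family that drives inflammatory chemokines. A gene can therefore answer both treatments, and the interaction asks whether the answers add up on the log scale.

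The E79Q libraries held 14285084 to 23640197 reads assigned to genes, and 15956 genes were tested with edgeR's quasi-likelihood test and Benjamini-Hochberg adjustment. All 12 squamous markers were detected, with a summed level of 2266 to 2697 CPM (counts scaled to library size) over the 12 libraries. The E79Q change itself cannot be checked in counts per gene. Of 18 markers of leukocytes, endothelium and fibroblasts, 6 had no read in any E79Q library, among them PTPRC, CD3E, HBB, KDR and LUM. Their summed level ran from 6.41 to 11.6 CPM in the treated groups and from 9.50 to 37.5 CPM in untreated cells, where COL1A1 in library 2 (29.5 CPM) made most of the top value. In bulk RNA, fewer cells expressing a gene and less RNA per cell cannot be told apart.

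A trend on GC content set some libraries apart. The median log2 deviation of genes over 56.3% GC minus that of genes under 42.2% GC, the upper and lower quartiles, was 0.65 in RT plus CB-839 library 2, and -0.22 to 0.15 in the other 11. WT RT plus CB-839 library 1 stood at 0.36, second highest of all 24, and was kept in the fit without 2 libraries, so it enters the genotype differences given from that fit. Untreated library 1 had the highest value of its group (0.08 against -0.11 and -0.08) and the lowest mitochondrial share of reads (1.93%, against 2.58% to 3.55%). This library and RT plus CB-839 library 2 are the 2 libraries left out below. The pair was set by hand, not by a cutoff on GC. CB-839 library 2 (-0.22) and RT plus CB-839 library 3 (0.15) deviated more than untreated library 1 and were kept. The trend moved with the result: 54.1% of genes with a positive interaction lay above the upper GC quartile and 59.3% of those with a negative interaction below the lower one. Across genes, which are not independent replicates, the interaction correlated with GC content at r = 0.29, and at 0.10 without these 2 libraries. The WT interaction, whose groups hold neither library, correlated at r = 0.21. In E79Q cells r was 0.32 for RT under CB-839 and 0.29 for CB-839 after RT. It was -0.02 for RT without CB-839 and -0.06 for CB-839 without RT. WT RT plus CB-839 libraries 1 to 3 stood at 0.36, 0.07 and 0.11, and the E79Q ones at -0.03, 0.65 and 0.15. Leaving out 2 libraries thus does not isolate the trend, and its cause was not tested. Counts over lists are therefore given from all libraries and mostly also without these 2 libraries or with GC and length trends removed, and a gene is called in all 3 fits where it passed an adjusted p of 0.05 each time in 1 direction.

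The interaction was positive for 1250 genes (7.83% of those tested) and negative for 1062 (6.66%), with 28 and 174 of them over a doubling or halving. Without the 2 libraries 302 genes (1.85%) were positive and 265 (1.62%) negative. With the trends removed the counts were 1222 (7.66%) and 803 (5.03%). All 3 fits called 277 positive and 217 negative genes. Leaving out 1 library moved the total of 2312 to 950 without untreated library 1, 1011 without CB-839 library 2, 1210 without RT plus CB-839 library 2 and 4275 without RT plus CB-839 library 1. In the same order 580, 625, 694 and 2188 genes were positive and 370, 386, 516 and 2087 negative. Counts over lists in those fits are to be read beside these. Among the 1250 positive genes the untreated mean was the highest of the 4 group means for 634 and the combined mean for 568, while CB-839 alone was lowest for 665 and RT alone for 524. Choosing genes by a positive interaction favours this order in itself, so it is a description; over all genes the untreated mean was highest for 25.1% and the combined for 28%, and CB-839 alone was lowest for 21.9% and RT alone for 19.5%. Among the 1062 negative genes the combined mean was lowest for 607 and the untreated mean for 437, and CB-839 alone (477) or RT alone (462) was most often highest.

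**Figure D1:**
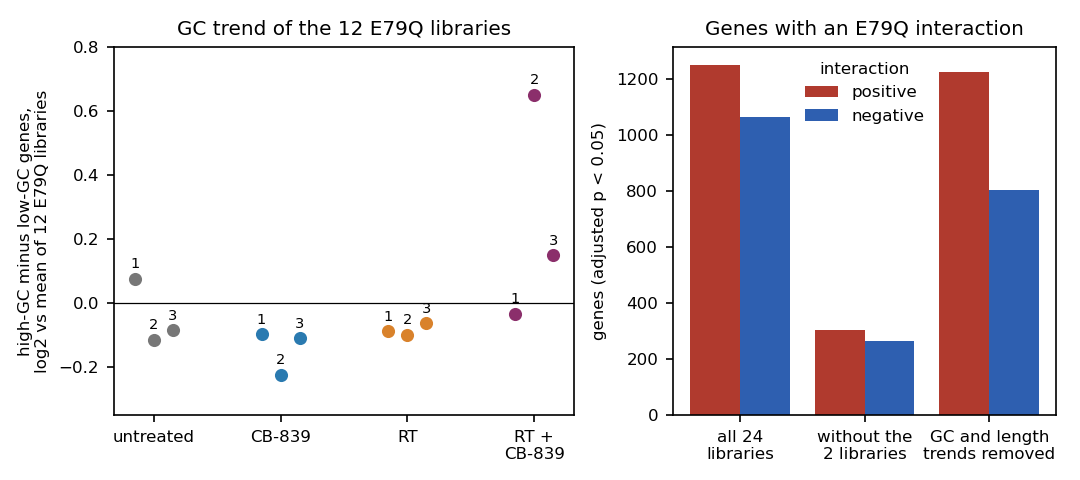
Left, GC trend of each E79Q library (median log2 deviation of high-GC genes minus that of low-GC genes, relative to the mean of the 12 libraries), points numbered by library; RT plus CB-839 library 2 lies at 0.65 and the other 11 between -0.22 and 0.15. Right, bars give the genes with a positive or negative interaction (adjusted p under 0.05) in the 3 fits, 1250 and 1062 with all libraries and 302 and 265 without the 2 libraries.

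Most chemokine and cytokine genes tested rose after RT, and for 7 of them the rise was smaller under CB-839. Of 30 listed genes for myeloid chemokines and cytokines, 18 passed the filter on low counts. 7 of the 18 had a negative interaction and 0 a positive one, against 6.66% and 7.83% of all genes. The median was -0.32 on the log2 scale against -0.04 over all genes tested. The counts were 6 and 0 both without the 2 libraries (median -0.39) and with trends removed (median -0.27). Over all genes 1.62% were negative and 1.85% positive without the 2 libraries (median -0.007). With trends removed these shares were 5.03% and 7.66% (median 0.009). RT without the drug had raised 14 of the 18 (12.2% of all genes rose), and RT under the drug 15 (15.3% of all genes). These contrasts share libraries with the interaction.

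CXCL1, CXCL2 and CXCL3 are neighbouring genes for ligands of the neutrophil receptor CXCR2, and their upstream windows hold the same elements. The 250 bases upstream of each start are shown because the genes are neighbours of 1 family, of which CXCL1 and CXCL3 passed and CXCL2 did not; they come from RefSeq on GRCh38.p14, 5′ to 3′, with matches to the kB-type motif GGNNTTTCC in capitals. The windows are CXCL1 at chr4:73869143-73869392 on the plus strand, CXCL2 at chr4:74099196-74099445 on the minus strand and CXCL3 at chr4:74038690-74038939 on the minus strand.
CXCL1: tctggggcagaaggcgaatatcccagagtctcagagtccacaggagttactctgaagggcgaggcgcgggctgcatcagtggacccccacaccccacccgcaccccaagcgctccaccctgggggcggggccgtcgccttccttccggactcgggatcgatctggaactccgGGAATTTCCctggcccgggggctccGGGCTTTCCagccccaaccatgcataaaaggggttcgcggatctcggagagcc
CXCL2: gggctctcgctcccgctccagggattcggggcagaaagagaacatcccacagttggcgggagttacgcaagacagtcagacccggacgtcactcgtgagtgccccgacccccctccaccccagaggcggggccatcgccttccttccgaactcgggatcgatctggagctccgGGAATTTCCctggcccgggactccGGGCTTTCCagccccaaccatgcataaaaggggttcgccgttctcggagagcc
CXCL3: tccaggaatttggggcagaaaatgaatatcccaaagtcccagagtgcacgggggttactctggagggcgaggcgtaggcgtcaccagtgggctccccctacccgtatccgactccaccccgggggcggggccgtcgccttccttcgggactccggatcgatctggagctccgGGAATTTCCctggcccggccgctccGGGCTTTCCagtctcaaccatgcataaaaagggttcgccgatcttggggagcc
Each window holds GGAATTTCC, 78 to 70 bases upstream of the start in CXCL1 and CXCL3 and 77 to 69 bases upstream in CXCL2, and GGGCTTTCC, 53 to 45 bases upstream in all 3. The letters were searched on both strands in windows from 250 bases before to 50 after the start, and 6.26% of 27305 RefSeq promoters held a match. Of the 7 chemokine and cytokine genes with a negative interaction, 6 had a promoter entry and 4 of these held a match (CXCL1, CXCL3, CXCL8 and CCL20). A form of the motif with 1 more G before it was searched first, and was in 1.92% of promoters and 3 of these genes (not CXCL8). The antioxidant response element core TGANNNNGC, a second motif, was in 4 of the same 6 promoters (66.7%, against 42.1% of all promoters). Both kB forms were chosen after the values were seen, and a match is a description of letters, not of binding.

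CXCL1 (ENSG00000163739, chr4:73869393-73871242) stood at 41.0, 33.1 and 31.1 CPM in untreated libraries 1 to 3, 47.9, 45.8 and 46.3 under CB-839, 124, 128 and 115 after RT, and 77.7, 83.5 and 79.9 after both. The 4 groups did not overlap: RT alone was highest, and the combination lay between RT and CB-839. The separate effects multiply to 162 CPM, and the combined mean was 49.4% of that. The interaction was -1.01 (SE 0.13, edgeR adjusted p = 2.44e-05), -1.16 without the 2 libraries and -0.90 with trends removed. CXCL3 showed the same order of groups at a lower level, with 2.23, 2.06 and 1.53 CPM untreated, 3.10, 3.2 and 3.42 under CB-839, 8.48, 10.0 and 8.63 after RT and 6.08, 5.64 and 6.20 after both (interaction -1.34, SE 0.24, edgeR adjusted p = 0.00131). CXCL2, with the same 2 matches, had 11.4, 14.1 and 10.7 CPM after RT and 8.12, 9.52 and 8.71 after both, and its interaction of -0.57 did not pass (edgeR adjusted p = 0.0948).

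CXCL8, the main human neutrophil attractant, had 16.1, 15.7 and 15.8 CPM untreated, 24.4, 25.4 and 23.5 under CB-839, 57.6, 67.0 and 57.2 after RT and 56.8, 53 and 54.0 after both. The drug raised the unirradiated level without overlap, while after RT its libraries lay just below those without it. Its interaction was -0.77 (SE 0.11, edgeR adjusted p = 4.89e-05), and -0.37 with trends removed (adjusted p = 0.0605), so this call depended on the correction. CCL20, which draws cells carrying CCR6, had 9.74, 10.2 and 9.23 CPM untreated, 22.7, 20.2 and 20.9 under CB-839, 29.9, 26.9 and 27.6 after RT and 33.7, 26.3 and 29.1 after both. Either treatment alone raised CCL20, and the combination overlapped RT alone (interaction -1.05, SE 0.15, edgeR adjusted p = 7.12e-05).

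CSF3, the granulocyte growth factor, had 1.91, 2.06 and 1.64 CPM untreated, 2, 3.51 and 2.98 under CB-839, 9.45, 9.76 and 9.35 after RT and 3.79, 5.46 and 5.51 after both. The combined mean was 34.1% of the product of the separate effects (interaction -1.55, SE 0.29, edgeR adjusted p = 0.00157). IL1A, an alarm cytokine of epithelial cells, had 167, 174 and 165 CPM after RT and 146, 111 and 133 after both, against 87.8 to 112 CPM in the unirradiated libraries (interaction -0.59, edgeR adjusted p = 0.00621). IL1B had a smaller value (-0.36). Other members did not follow: CSF2 stood at 10.3 to 11.9 CPM after RT and 13.7 to 18.4 after both (interaction 0.30, edgeR adjusted p = 0.444), and IL6 at 10.7 to 12.8 and 9.15 to 10.9 (-0.34, adjusted p = 0.274).

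**Figure D2:**
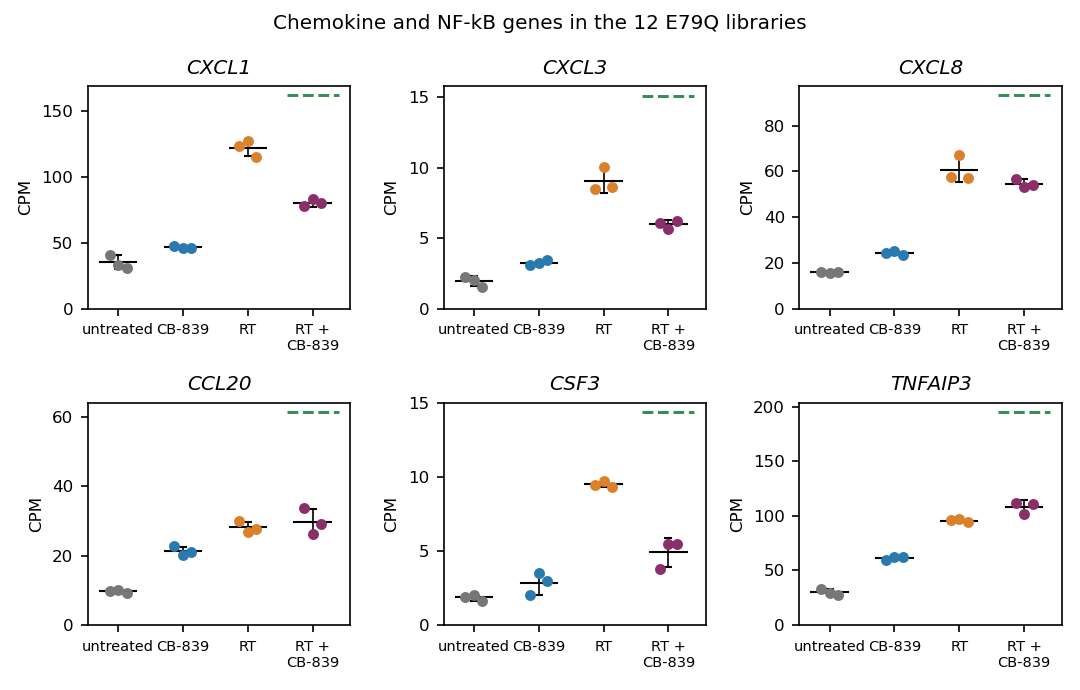
CPM of 6 chemokine and NF-kB genes in the 12 E79Q libraries by treatment; points are libraries, black lines the mean ± SD (n = 3), and the green dashed line the level to which the separate effects multiply. The combined libraries lie below the dashed line in every panel, for CXCL1 at 77.7 to 83.5 CPM against 162.

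Of 25 NF-kB targets and feedback genes, all tested and some shared with the chemokine list, 6 had a negative and 3 a positive interaction (median -0.08). Without the 2 libraries the counts were 5 and 1, and with trends removed 5 and 2. Over all genes 6.66% were negative and 7.83% positive, 1.62% and 1.85% without the 2 libraries, and 5.03% and 7.66% with trends removed. TNFAIP3, which encodes the feedback inhibitor A20, had 33.4, 29.1 and 27.4 CPM untreated, 59.3, 62.0 and 62.4 under CB-839, 96.1, 96.8 and 93.9 after RT and 112, 102 and 111 after both. Its combined libraries were the highest of all 12, yet at 55.4% of the product (interaction -0.85, SE 0.10, edgeR adjusted p = 3.65e-06). BCL3, a nuclear IkB family member, was positive at 0.74 (edgeR adjusted p = 0.00742): CB-839 alone lowered it and RT alone did not (means 16.5, 7.42, 16.9 and 12.7 CPM in the order untreated, CB-839, RT and both). CD274, the gene of PD-L1, a ligand that restrains T cells, had 11.5, 12.8 and 10.7 CPM untreated, 19.4, 18.8 and 16.4 under CB-839, 24.9, 23.7 and 24.9 after RT and 20.9, 16.6 and 21.2 after both. RT raised CD274 without the drug but the libraries overlapped between CB-839 with and without RT (interaction -0.97, SE 0.16, edgeR adjusted p = 0.000469, and called in all 3 fits).

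Several genes of matrix and ERK feedback had negative interactions. CTGF, a matrix protein and YAP target, had 113, 112 and 119 CPM after RT and 109, 115 and 106 after both, against 56.5 to 64.4 untreated and 93.2 to 98.0 under CB-839 (interaction -0.74, edgeR adjusted p = 2.59e-06). DUSP4 (-0.51) and DUSP6 (-0.50), phosphatases that limit ERK, passed in all 3 fits. MMP1, a collagenase, was also negative (-0.38), with group means of 761, 526, 1469 and 782 CPM in the same order. Of 27 mesenchymal genes tested, 6 were negative and 3 positive, 3 and 4 without the 2 libraries, so that the balance turned, and 6 and 3 with trends removed. Leaving out RT plus CB-839 library 1 gave 6 positive, where all genes gave 2188. For this list and the next, 6.66% of all genes were negative and 7.83% positive, and 1.62% and 1.85% without the 2 libraries. Of 24 genes of secreted proteases, their inhibitors and growth factor control, 2 were negative and 5 positive, 2 and 3 without the 2 libraries and 5 and 5 with trends removed. The positive ones fell to 3 without untreated library 1, RT library 3 or CB-839 library 2, and included the growth factor binding proteins IGFBP3 (0.73) and IGFBP4 (0.40).

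The carrier SLC7A5 and its partner SLC3A2 showed the reverse shape: RT lowered them without the drug and not under CB-839. SLC7A5, the LAT1 carrier for large neutral amino acids, had 3489, 3264 and 3298 CPM untreated, 3293, 3222 and 3386 under CB-839, 1959, 1920 and 1976 after RT and 3118, 3689 and 3336 after both. Only the RT libraries stood apart. The interaction was 0.81 (SE 0.07, edgeR adjusted p = 1.14e-08), 0.73 without the 2 libraries and 0.63 with trends removed. SLC3A2, the chain that pairs with SLC7A5, had 724, 724 and 705 CPM after RT and 942 to 1169 in the other 9 libraries (interaction 0.57, SE 0.07, edgeR adjusted p = 9.74e-06). WT cells also had positive interactions, 0.62 for SLC7A5 and 0.61 for SLC3A2. Neither difference between genotypes passed (edgeR adjusted p = 0.425 and 0.91), though SLC7A5 differed by 0.17 with trends removed (edgeR adjusted p = 0.0416). Of 26 genes of glutamine and glutamate use and amino acid carriage tested, 7 were positive and 1 negative, against 7.83% and 6.66% of all genes. The counts were 2 and 0 without the 2 libraries (1.85% and 1.62% of all genes) and 9 and 1 with trends removed. The 1 negative of the fit to all libraries became 0 without untreated library 3, RT library 1 or 2, or CB-839 library 1 or 2. It became 3 without RT plus CB-839 library 1, where negative genes over all went from 1062 to 2087. GLUL, glutamine synthetase, was positive at 0.37 and passed in all 3 fits; its difference from WT (0.39) had an adjusted p of 0.0504 without the 2 libraries.

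ATF4, a translationally induced regulator that answers amino acid shortage, had 284, 272 and 302 CPM untreated, 316, 284 and 280 under CB-839, 243, 234 and 244 after RT and 302, 348 and 304 after both. RT alone was lowest without overlap (interaction 0.37, SE 0.08, edgeR adjusted p = 0.00803). Of 30 ATF4 targets tested, 5 were positive and 3 negative, with a median of 0.07, against 7.83% and 6.66% of all genes. Without the 2 libraries 5 and 1 passed (1.85% and 1.62% of all genes), and with trends removed 6 and 5 (7.66% and 5.03%). The 3 negative became 1 without RT library 3 and 5 without RT plus CB-839 library 1. The positive ones were SLC7A5, SLC3A2, SLC7A1, ATF4 itself and DDIT4, and the negative ones ALDH1L2 (-0.73), FAM129A (-0.76) and STC2 (-0.25, adjusted p = 0.0505 without RT library 3). In WT cells 22 of the same 30 genes had a positive interaction and 0 a negative one (median 0.91), where 2.75% of all genes were positive and 1.27% negative. The test of the difference between genotypes found 13 of the 30 lower in E79Q cells and 0 higher (median -1.07), where 0.777% of all genes were lower and 0.326% higher. Without the 2 libraries 14 were lower (1.04% of all genes), and with trends removed 18 (1.39%).

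CHAC1, which degrades glutathione, shows the contrast. It had 12.6, 11.3 and 10.0 CPM in untreated E79Q libraries, 18.9, 17.1 and 16.4 under CB-839, 15.6, 17.6 and 17.0 after RT and 24.2, 31.4 and 30.1 after both, against a product of 25.8 CPM (interaction 0.16, edgeR adjusted p = 0.612). WT libraries had 18.4, 17.7 and 18.7 CPM untreated, 2.6, 4.80 and 4.50 under CB-839, 13.2, 14.2 and 11.4 after RT and 19.6, 16.6 and 14.3 after both. The drug alone thus raised CHAC1 in E79Q cells, while the unirradiated drug libraries were the lowest of the WT set, and the interactions differed by -2.43 (edgeR adjusted p = 2.04e-05). SLC6A9, a glycine carrier, had group means of 4.89, 10.6, 5.80 and 12.6 CPM in E79Q cells and 10.2, 2.47, 7.29 and 8.46 CPM in WT cells in the order untreated, CB-839, RT and both (difference -2.26, edgeR adjusted p = 5.07e-05). ASNS, asparagine synthetase, differed by -2.14 at a low level (group means 2.26 to 4.77 CPM in E79Q cells).

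ASNS and CHAC1 were also the members with a match to the amino acid response element core TGATGNAAN among 10 of the 13 genes that had a promoter entry, and 3.67% of all RefSeq promoters held one. Their upstream 250 bases are given because both are among the largest called differences between genotypes, with the match in capitals; the windows are ASNS at chr7:97872409-97872658 on the minus strand and CHAC1 at chr15:40953221-40953470 on the plus strand.
ASNS: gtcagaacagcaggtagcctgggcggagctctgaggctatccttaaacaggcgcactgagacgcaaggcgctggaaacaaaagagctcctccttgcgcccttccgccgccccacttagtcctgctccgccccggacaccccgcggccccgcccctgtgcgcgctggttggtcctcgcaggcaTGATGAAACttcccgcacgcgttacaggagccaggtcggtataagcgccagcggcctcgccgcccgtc
CHAC1: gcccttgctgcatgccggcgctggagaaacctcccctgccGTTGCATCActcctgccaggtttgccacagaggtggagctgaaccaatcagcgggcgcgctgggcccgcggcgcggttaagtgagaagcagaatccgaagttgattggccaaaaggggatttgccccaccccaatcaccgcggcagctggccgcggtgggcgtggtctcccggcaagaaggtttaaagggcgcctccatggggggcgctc
The match spans 68 to 60 bases upstream of the ASNS start on the gene's strand, and 210 to 202 bases upstream of the CHAC1 start on the opposite strand, where the capitals show its complement. In the same 10 promoters TGANNNNGC was in 4 (40%, against 42.1% of all promoters) and GGNNTTTCC in 1 (10%, against 6.26%).

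**Figure D3:**
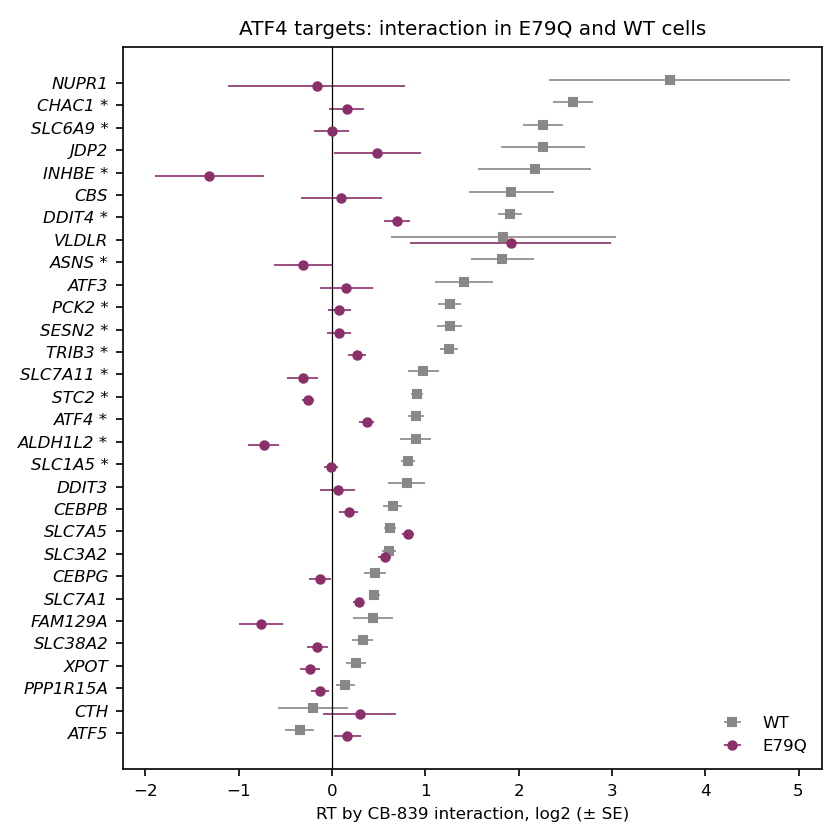
RT by CB-839 interaction (log2 ± SE) of the 30 ATF4 targets tested, in E79Q cells (circles) and WT cells (squares), sorted by the WT value; a star marks the 13 genes whose interaction differed between genotypes. The WT median is 0.91 and the E79Q median 0.07.

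Other genes of amino acid supply were positive in small numbers. Of 20 aminoacyl-tRNA synthetases, 5 were positive and 0 negative in E79Q cells, against 7.83% and 6.66% of all genes. The counts were 1 and 0 without the 2 libraries (1.85% and 1.62% of all genes) and 6 and 0 with trends removed. The 5 became 3 without untreated library 1, 8 without untreated library 2 and 10 without RT plus CB-839 library 1. Over all genes these fits gave 580, 1497 and 2188 positive. AARS (0.36, edgeR adjusted p = 0.00188) passed in all 3 fits. The genotype difference was negative for 7 of the 20, AARS among them (-0.42), where 0.777% of all genes were lower. Of 12 serine, glycine and one-carbon enzymes, 1 was positive (MTHFD1L, 0.22, lost without untreated library 3, RT library 2, CB-839 library 2 or RT plus CB-839 library 2, adjusted p up to 0.0782). The counts were 0 positive without the 2 libraries and 3 with trends removed, and 0 negative in both. PHGDH and PSAT1, the entry enzymes of serine synthesis, did not pass in E79Q cells (0.19 and 0.09) and differed from WT by -0.71 and -0.93.

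SREBF1, SCD and FASN fell with either treatment alone, and after both lay above the product of these falls. SREBF1, the transcription factor of fatty acid synthesis, had 138, 132 and 134 CPM untreated, 46.2, 44.0 and 45.0 under CB-839, 87.3, 83.8 and 93.4 after RT and 52.3, 56.6 and 52.0 after both. The combined libraries lay just above those with the drug alone, at 182% of the product (interaction 0.87, SE 0.09, edgeR adjusted p = 5.86e-07). The interaction differed from WT by 0.68 (edgeR adjusted p = 0.00255). SCD, the fatty acid desaturase, had 553, 574 and 592 CPM untreated, 201, 206 and 197 under CB-839, 398, 378 and 399 after RT and 188, 206 and 185 after both. Drug-treated SCD levels overlapped with and without RT, while RT lowered the level without the drug (interaction 0.49, SE 0.06, edgeR adjusted p = 1.9e-05, difference from WT 0.51). FASN, fatty acid synthase, was positive at 0.48 (edgeR adjusted p = 0.000286). Of 16 fatty acid synthesis genes, 5 were positive and 1 negative (3 and 0 both without the 2 libraries and with trends removed). Of 23 cholesterol synthesis genes 3 were positive and 2 negative (1 and 0 without the 2 libraries, 2 and 0 with trends removed). Among the latter DHCR7 (0.39) passed in all 3 fits. Over all genes 7.83% were positive and 6.66% negative, and 1.85% and 1.62% without the 2 libraries. The 5 fatty acid genes became 3 without untreated library 1, RT library 1 or 2, CB-839 library 2 or RT plus CB-839 library 2. Without RT plus CB-839 library 1, 10 cholesterol genes were positive, where all genes gave 2188. There were 6 without RT plus CB-839 library 3 (1477 over all genes). Without CB-839 library 2 or RT plus CB-839 library 2 there was 1 (625 and 694 over all genes). The 2 negative cholesterol genes became 0 or 1 without any 1 library other than RT plus CB-839 library 1.

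Among genes of sugar use more were positive than negative. Of 29 hypoxia and glycolysis genes tested, 10 were positive and 1 negative (median 0.15), 5 and 1 without the 2 libraries (median 0.13), and 9 and 1 with trends removed. Leaving out untreated library 1 or CB-839 library 2 gave 6 positive, where all genes gave 580 and 625. With all libraries 7.83% of all genes were positive and 6.66% negative, and 1.85% and 1.62% without the 2 libraries. SLC2A1, the glucose carrier GLUT1, had 343, 333 and 336 CPM untreated, 224, 216 and 226 under CB-839, 265, 270 and 264 after RT and 223, 276 and 234 after both. Each treatment alone lowered it, and the combination overlapped both (interaction 0.48, SE 0.08, edgeR adjusted p = 0.00062). GPI, GAPDH, ENO1 and PKM, enzymes of the glycolytic path, had 0.34 to 0.36 and also passed in all 3 fits. For GAPDH the means were 3591, 2547, 3207 and 2899 CPM, the last at 127% of the product. PFKFB4, an activator of phosphofructokinase, was the negative member (-0.75, edgeR adjusted p = 0.00122), with 7.85 CPM untreated and 13.9 to 18.4 in the treated means.

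In the mitochondrion, 10 of 25 genes of the TCA cycle and pyruvate entry were positive and 0 negative (median 0.18). The counts were 3 and 0 without the 2 libraries (median 0.10) and 8 and 0 with trends removed (median 0.17). Leaving out either untreated library 1 or RT plus CB-839 library 2 gave 6 positive. Those that passed in all 3 fits were SDHB (0.36), OGDH (0.36) and PC (0.53), of which PC encodes pyruvate carboxylase, which refills the cycle. In WT cells the PC interaction was 0.63, and the difference did not pass (edgeR adjusted p = 0.866). Of 33 nuclear respiratory chain subunits, 9 were positive and 0 negative (7.83% and 6.66% of all genes), and 11 and 0 with trends removed. Without the 2 libraries 2 were positive and 0 negative (1.85% and 1.62% of all genes), and the 2 were SDHB and UQCRFS1 (0.39). The 9 became 4 without untreated library 1, 3 without CB-839 library 2, 5 without RT plus CB-839 library 2 and 14 without RT plus CB-839 library 1. Over all genes the positive count of 1250 went to 580, 625, 694 and 2188 in the same order. None of 13 mitochondrially encoded genes passed edgeR's test in either direction, 0 at an unadjusted p under 0.05 and 0 in DESeq2 or limma, although 3 were positive with trends removed, with MT-ND4 at -0.31 and MT-CO1 at -0.15. Among 12 NADPH and pentose phosphate genes, 4 were positive and 0 negative, 3 and 0 without the 2 libraries and 4 and 0 with trends removed. Without RT plus CB-839 library 1 or 3 there were 7 positive, where all genes gave 2188 and 1477. TKT, transketolase, was positive at 0.41.

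**Figure D4:**
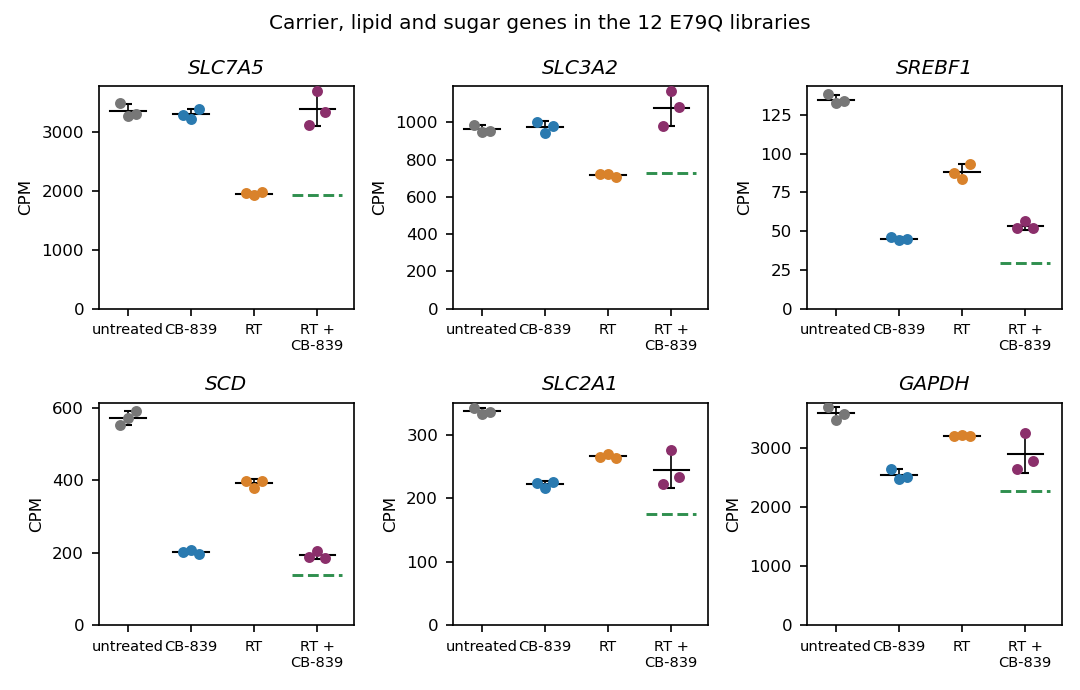
CPM of 6 carrier, lipid and sugar genes in the 12 E79Q libraries by treatment; points are libraries, black lines the mean ± SD (n = 3), and the green dashed line the level to which the separate effects multiply. The combined libraries lie above the dashed line in every panel, for SLC7A5 at 3118 to 3689 CPM against 1922.

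The promoters of the called sugar and TCA genes were searched for the antioxidant response element core TGANNNNGC and for TGATGNAAN, on both strands in windows of the same length. The first was in 6 of 11 called hypoxia and glycolysis genes (54.5%) and 2 of the 8 TCA genes with an entry (25%), against 42.1% of all promoters. The second was in 0 of either set. The kB motif GGNNTTTCC was in 0 of the 11 and 1 of the 8, against 6.26% of all promoters. These were the 2 lists with the most calls, and the plan covered only these. The chemokine and ATF4 sets were added to it.

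With all libraries in edgeR, counts for NRF2 targets lay near or below the shares over all genes (7.83% positive, 6.66% negative), and other fits moved them. Of 16 glutathione and thioredoxin targets tested, 1 was positive (GPX4, 0.39) and 1 negative (TXN, -0.25), and none passed without the 2 libraries. With trends removed 2 were positive and 0 negative, and without RT plus CB-839 library 1 there were 4 positive. TXN passed in only 2 of the 12 fits that left out 1 library (adjusted p up to 0.174). Of 30 targets for detoxification, iron and transport, 2 were positive and 2 negative (median 0.16 against -0.04 over all genes). The counts were 3 and 3 with trends removed and 5 and 2 in DESeq2. Without RT plus CB-839 library 1 there were 8 positive, where all genes went from 1250 to 2188. Without the 2 libraries the counts were 0 and 1. The 1 was ABCC3, an organic anion exporter (-0.59, edgeR adjusted p = 0.00939 with all libraries). NQO1, the quinone reductase, had 574 to 612 CPM untreated, 598 to 672 under CB-839, 557 to 574 after RT and 695 to 842 after both (interaction 0.33, edgeR adjusted p = 0.021; 0.12 without the 2 libraries, and up to 0.0548 without untreated library 1 or CB-839 library 2). NFE2L2 had 132 to 137, 125 to 136, 192 to 198 and 128 to 168 CPM in the same order (-0.36, edgeR adjusted p = 0.0146; 0.0783 without the 2 libraries and 0.0527 without CB-839 library 2). KEAP1 was positive at 0.28 and passed in 4 of the 12 fits that left out 1 library (adjusted p up to 0.106). TXNRD1 (0.01), GCLM (-0.11), SLC7A11 (-0.32) and HMOX1 (0.28) did not pass edgeR's test. The difference between genotypes was called for SLC7A11, the cystine carrier (-1.29), and GCLM (-0.48, not called with trends removed, adjusted p = 0.13).

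Epithelial genes went both ways. Of 20 squamous differentiation genes tested, 5 were positive and 1 negative (median 0.14), against 7.83% and 6.66% of all genes. Without the 2 libraries 5 and 0 passed (median -0.02, 1.85% and 1.62% of all genes). With trends removed 5 and 2 passed (median -0.01, 7.66% and 5.03% of all genes). Of the 12 squamous markers 4 were positive and 2 negative (median -0.09). Their counts were 4 and 1 without the 2 libraries (median -0.04) and 4 and 3 with trends removed (median 0.11). ELF3, an epithelial ETS factor, had 17.3, 18.9 and 19.9 CPM untreated, 3.93, 4.25 and 5.19 under CB-839, 12.5, 12.6 and 13.1 after RT and 6.20, 7.67 and 7.68 after both. RT lowered ELF3 without the drug and raised it under the drug, with no overlap either way (interaction 1.24, SE 0.16, edgeR adjusted p = 1.21e-05, difference from WT 1.09). KLK10, a secreted kallikrein protease, had 17.6, 15.1 and 15.1 CPM untreated, 7.79, 9.90 and 9.66 under CB-839, 14.8, 14.9 and 13.9 after RT and 16.5, 20.2 and 17.8 after both (interaction 1.12, edgeR adjusted p = 5.44e-06). In WT cells the KLK10 interaction was 0.84, and the difference did not pass (edgeR adjusted p = 0.543). KRT17, a keratin of stressed epithelium, had 144 to 178 CPM in the first 3 groups and 205, 275 and 233 after both (interaction 0.78, edgeR adjusted p = 4.36e-05). KLK5 (0.52), KLK6 (0.59), KRT5 (0.51), KRT14 (0.71) and SFN (0.54) also passed in all 3 fits, while the adhesion genes DSG3 (-0.58) and ITGA6 (-0.43) were negative. DSG3 passed in 5 of the 12 fits that left out 1 library (adjusted p up to 0.114).

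The largest positive values belonged to genes with group means of 1.81 to 62.6 CPM. OTUD1, a deubiquitinase, had 19.8, 19.7 and 19.7 CPM untreated, 9.38, 12.1 and 11.5 under CB-839, 6.66, 8.41 and 9.35 after RT and 13.3, 13.6 and 12.5 after both. Each treatment lowered OTUD1, and the combination stood above either (interaction 1.54, SE 0.15, edgeR adjusted p = 5.44e-07; difference from WT 1.18). VSIR, the checkpoint protein VISTA, had 53.6, 53.7 and 54.2 CPM untreated, 18.8, 17.1 and 22.0 under CB-839, 29.7, 28.6 and 27.1 after RT and 20.6, 27.0 and 22.8 after both (interaction 1.2, edgeR adjusted p = 5.44e-07; difference from WT 0.80). TNFSF9, the ligand of 4-1BB, went from 13 to 13.3 CPM untreated to 3.63 to 4.14 under CB-839, 6.53 to 9.29 after RT and 5.83 to 7.72 after both (1.54, edgeR adjusted p = 9.39e-05). DEPP1 (1.70), SYT12 (1.07), WNT10A (1.11) and AQP3 (1.12) passed in all 3 fits. COL1A1 (1.57, edgeR adjusted p = 0.0473) rested on the 29.5 CPM of untreated library 2, beside 7.29 and 6.51 CPM in the other 2, and leaving that library out gave 0.54; it passed in 3 of the 12 fits that left out 1 library (adjusted p up to 0.0985).

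Of the 12 largest negative values, ESM1, CSF3, RGPD8, CXCL3, TRIM9 and AKAP9 passed in all 3 fits. ESM1, a secreted proteoglycan, had 10.6, 9.13 and 10.6 CPM after RT, 4.81, 2.22 and 3.25 after both and 1.44 to 2.09 in unirradiated libraries (interaction -1.59, SE 0.36, edgeR adjusted p = 0.007). AKAP9, a long gene for a centrosomal anchor protein, fell to 29.6 CPM after both from 44.5 to 59.7 in the other group means (-1.30). RGPD8 belongs to a family of near-identical copies, so its reads may be split among them.

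**Figure D5:**
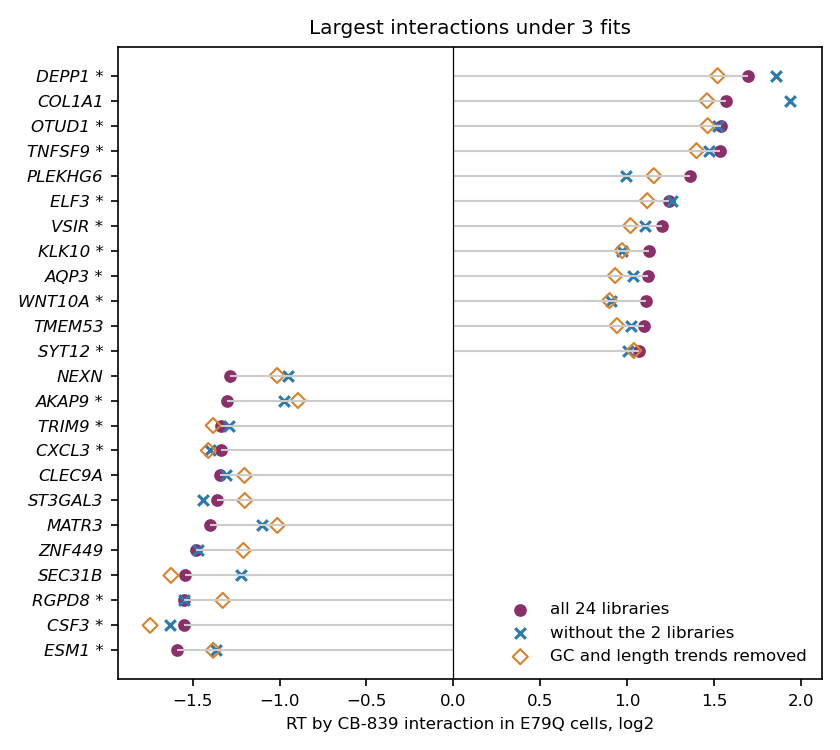
RT by CB-839 interaction (log2) in E79Q cells of the 12 largest positive and 12 largest negative called genes, with all 24 libraries (circles), without the 2 libraries (crosses) and with GC and length trends removed (diamonds); a star marks genes called in all 3 fits. Values of AKAP9 shrink from -1.30 to -0.97 and -0.89, while those of OTUD1 lie between 1.46 and 1.54.

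Cell cycle and repair genes split by gene. CENPE, a kinetochore motor, had 52.8, 64.7 and 75.2 CPM untreated, 58.5, 70.6 and 66.0 under CB-839, 65.6, 65.1 and 65.5 after RT and 41.0, 20.3 and 27.6 after both (interaction -1.18, SE 0.26, edgeR adjusted p = 0.00602). Its lowest value was in RT plus CB-839 library 2, which has the strongest GC trend, and the interaction was -0.83 without the 2 libraries. CENPF (-0.87) was negative while BIRC5 (0.37) and CDC20 (0.41) were positive. In all, 4 of 32 mitotic genes were positive and 3 negative (2 and 2 without the 2 libraries, 5 and 4 with trends removed). Over all genes 7.83% were positive and 6.66% negative, 1.85% and 1.62% without the 2 libraries, and 7.66% and 5.03% with trends removed. Of 34 replication genes 7 were positive and 1 negative, led by MCM5 (0.41) and MCM7 (0.37). The replication counts were 2 and 0 without the 2 libraries and 7 and 0 with trends removed. Of 31 genes of double-strand break repair 1 was positive and 6 negative (median -0.30 against -0.04 over all genes). With trends removed 1 repair gene was positive and 5 negative (median -0.15). Without the 2 libraries only ATM (-0.64) was left among the repair genes (median -0.15), where 1.62% of all genes were negative. The 6 negative repair genes became 1 without untreated library 1 or CB-839 library 2, 2 without RT library 1 and 17 without RT plus CB-839 library 1. Over all genes the negative count of 1062 went to 370, 386, 553 and 2087 in the same order. There were 3 negative repair genes without untreated 3, RT 2, CB-839 3 or RT plus CB-839 2. Leaving out RT plus CB-839 library 1 also gave 12 negative mitotic genes. Without untreated library 1 or CB-839 library 2, 4 replication genes were positive, where all genes gave 580 and 625.

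Of 32 p53 targets 3 were positive and 1 negative, against 7.83% and 6.66% of all genes, 2 and 1 without the 2 libraries and 3 and 1 with trends removed. The 3 became 1 without CB-839 library 2. CDKN1A, the cell cycle inhibitor p21, had group means of 38.2, 62.6, 103 and 145 CPM (interaction -0.22, edgeR adjusted p = 0.199), and MDM2 stood at -0.21. In the difference between genotypes CDKN1A (-1.19) and GDF15 (-1.39) were called. For the lists that follow the shares over all genes were again 7.83% positive and 6.66% negative, and 1.85% and 1.62% without the 2 libraries. Interferon-stimulated genes had 1 positive and 4 negative of 23, 0 and 0 without the 2 libraries and 1 and 2 with trends removed. IFIT2 had group means of 6.67, 5.59, 21.0 and 10.3 CPM (-0.78, lost without untreated library 1, CB-839 library 3 or RT plus CB-839 library 2, adjusted p up to 0.0765). Unfolded protein response genes had 1 positive and 3 negative of 24 (0 and 1 without the 2 libraries, 1 and 2 with trends removed), and heat shock proteins 1 and 2 of 19 (0 and 0, then 0 and 2). Antigen presentation had 2 and 2 of 21 (1 and 0, then 0 and 0), lysosome and autophagy 4 and 0 of 29 (0 and 0, then 1 and 1), and metallothioneins 0 and 0 of 6 in edgeR's test (1 positive at an unadjusted p under 0.05, 0 in DESeq2 and limma). These small counts moved with single libraries, as did the counts over all genes. The 4 lysosome genes became 0 without untreated library 1 or CB-839 library 2 and 9 without RT plus CB-839 library 1. Over all genes the positive count of 1250 went to 580, 625 and 2188 in these fits. The 4 negative interferon genes became 0 without untreated library 1, where negative genes over all went from 1062 to 370. Without RT plus CB-839 library 1, 7 antigen presentation genes were positive.

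Across all genes the interaction differed between genotypes for 176 (1.10%), 52 higher and 124 lower in E79Q cells. The WT interaction was positive for 439 genes and negative for 202. Among called protein-coding genes with a mean log2 CPM of at least 1, the largest differences upward were INKA1 (1.55), RAB7B (1.27) and DPF3 (1.2), and those downward CHAC1, SLC6A9 and ASNS. Of these only RAB7B had a called interaction within E79Q cells. When 1 library was left out, the E79Q interaction was 0.48 to 0.71 for INKA1 and 0.10 to 0.24 for DPF3. RAB7B had 16.9, 15.8 and 17.0 CPM untreated, 10.2, 9.35 and 8.44 under CB-839, 5.85, 6.12 and 6.29 after RT and 7.10, 6.47 and 7.04 after both in E79Q cells. Its drug libraries in WT cells stood at 15.7, 18.8 and 18.5 CPM against 13.1, 13.8 and 15 untreated. Whether cells surviving each treatment differed in number or state was not tested.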

How the data were processed

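Bulk RNA-seq of 24 SAS libraries was analysed from the authors' deposited table of raw counts per gene, which per the submitters' processing notes came from STAR and HTSeq on GRCh38; its 58735 gene IDs and coordinates matched GENCODE 29. Column names were matched to sample labels. All 24 libraries (8 groups of 3) were fitted in edgeR 4.0.16 (filterByExpr, TMM, quasi-likelihood, 16 residual degrees of freedom, R 4.3.3) with 7 contrasts, adjusted by Benjamini-Hochberg over 15956 genes at 0.05. CPM values use TMM-scaled library sizes. An exact test of 3 against 3 libraries cannot go below p = 0.1. The model was also run on simulated counts, which held no GC trend and so do not bear on the trends above. Offsets removing lowess trends (span 0.3) on GC content and length, and a fit without 2 libraries, were alternatives, as were DESeq2 1.42.0, limma 3.58.1, other scalings and filters, a test against 1.5-fold and leaving out each library.

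Members and the 32 gene lists were chosen with earlier results of these data known, and lists overlap. Named genes were the 12 largest called values each way among protein-coding genes with a mean log2 CPM of at least 1, up to 2 called members per list and direction, the 3 largest genotype differences each way and a fixed set; other list members were named after their values were seen. No set test was made. Strandedness was not given in the sources used here. Single values of some genes are not reported here, though counts over lists and all genes include them.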

Additional observations from a re-analysis of the deposited data

Results flagged for a closer look

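For 176 genes the interaction in E79Q cells differed from that in WT cells in the test of the difference itself (edgeR, adjusted p under 0.05). Among the named genes the E79Q value was higher, by log2, for INKA1 (1.55), RAB7B (1.27), DPF3 (1.2), OTUD1 (1.18), ELF3 (1.09), VSIR (0.80), SREBF1 (0.68), SYT12 (0.66), SCD (0.51), BIRC5 (0.46) and GLUL (0.39, edgeR adjusted p = 0.0504 without the 2 libraries). It was lower in the amino acid response for CHAC1 (-2.43), SLC6A9 (-2.26), ASNS (-2.14), ALDH1L2 (-1.63), STC2 (-1.17), TRIB3 (-0.98), ATF4 (-0.53) and AARS (-0.42). It was lower in inflammatory genes for CXCL3 (-1.88), CXCL8 (-1.32), CXCL1 (-1.06) and TNFAIP3 (-1.04). It was lower in stress and NRF2-linked genes for GDF15 (-1.39), SLC7A11 (-1.29), CDKN1A (-1.19), ABCC3 (-1.03) and GCLM (-0.48, edgeR adjusted p = 0.13 with trends removed). Within E79Q cells no interaction was called for INKA1, DPF3, CHAC1, SLC6A9, ASNS, TRIB3, GDF15, SLC7A11, CDKN1A or GCLM with all libraries.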

How the results depend on the processing

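The count of genes with an interaction in E79Q cells kept within 1.5 times of 2312 under DESeq2, limma-voom, RLE and upper quartile scaling, both other filters and removal of GC and length trends. It was 831 (457 positive, 374 negative) when only the E79Q libraries were fitted, 567 (302 and 265) without the 2 libraries and 14 (9 and 5) against 1.5-fold. The WT count went from 641 to 997 with no filter, 1417 with WT libraries alone, 1813 without the 2 libraries, 1153 with trends removed and 18 against 1.5-fold. The genotype difference went from 176 to 305 in DESeq2, 514 with trends removed and 11 against 1.5-fold. Against 1.5-fold, RT without CB-839 gave 238 genes, RT under CB-839 71, CB-839 without RT 119 and CB-839 after RT 79. The cause of these shifts was not tested. The 2 libraries left out are untreated library 1 and RT plus CB-839 library 2 of E79Q cells. Each WT group therefore kept its 3 libraries in that fit. Filter, scaling and spread are estimated over all libraries of a fit, so these 2 libraries also enter the WT and difference tests.

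Leaving out single libraries gave 950 to 4275 genes for the E79Q interaction (580 to 2188 positive, 370 to 2087 negative), 363 to 718 for WT and 116 to 284 for the difference. It gave 2739 to 4492 for RT without CB-839, 3073 to 5683 for RT under CB-839, 2185 to 4029 for CB-839 without RT and 2856 to 5276 for CB-839 after RT. No named gene with a called interaction changed sign under any alternative run. Of 132 named genes 112 were called. Of these, 105 lost their call against 1.5-fold and 47 without the 2 libraries. With only the E79Q libraries fitted 32 lost it, and with trends removed 26. Leaving out CB-839 library 2 lost 31, the most of any single library.

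No shared deviation of same-numbered E79Q libraries was seen: their deviations correlated at -0.11 to 0.03 over 18 pairs. With 3 libraries per group this cannot exclude a pairing, and the labels do not give one. With the replicate number as a block the count was 1883 (1027 positive, 856 negative), 510 in WT and 145 for the difference. Library size limits the precision of genes with low counts.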
